A study of Homo sapiens with 4 samples.

Results

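The genes described here were GAS5, ZFAS1, SNHG1, SNHG5, SNHG6, SNHG7, SNHG8, SNHG12, SNHG15 and SNHG16. They were listed as noncoding small nucleolar RNA (snoRNA) host genes with 5′ terminal oligopyrimidine (TOP) ends. No annotated transcript of SNHG7 or SNHG15 met the rule for such an end given below. These 10 genes were chosen by name from the 26364 gene symbols of the count table, with earlier results of these data known. Counts of calls over them are thus a description and no test of the set. All 10 passed the filter on low counts. The cells were Ishikawa cells, a human endometrial adenocarcinoma line, carrying Y537S, a mutation of estrogen receptor alpha (ESR1) in the part that binds hormone, which all 4 libraries share. The DMSO group (2 libraries) received 0.1% DMSO, the vehicle, and the E2 group (2 libraries) received 10 nM estradiol, each for 8 h after at least 5 days in medium without hormones. Each group held 1 library of each of 2 mutant clones, clone 1 and clone 2. The columns carry the tags A4 and B212 instead, which no label links to a clone number, so libraries are named by treatment and tag. Each tag is a single clone, and no source says that libraries came from repeated cultures, so p-values measure only the spread between these libraries, which may be technical. In such bulk samples, a change in the cells that express a gene and a change in its RNA per cell cannot be told apart.

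A snoRNA host gene is transcribed as a long RNA whose introns are trimmed into snoRNAs. Box C/D snoRNAs guide ribose methylation of ribosomal RNA and box H/ACA snoRNAs guide its pseudouridylation. In a noncoding host the spliced exons hold no long reading frame. Where such an RNA is taken up by ribosomes, early stop codons send it to nonsense-mediated decay, so its level is known to fall when it is translated. A TOP end, a C at the first base followed by pyrimidines, is shared with the mRNAs of ribosomal proteins and elongation factors. It is the element through which mTORC1 and LARP1 control whether those RNAs are translated.

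The first bases of the transcripts show how far the members carry this element. Below are 30 bases from an annotated start of 9 members, 5′ to 3′ (GENCODE 29, GRCh38). Each start was the one shared by the largest number of transcripts meeting the TOP rule, or of all transcripts where none did. Ties went to the most 5′ start, and the SNHG15 start was that of 1 of its 10 transcripts. Capitals mark the first C with the pyrimidines that directly follow it, and SNHG15, where none follows, has no capitals.
GAS5 (chr1:173867960-173867989, minus strand): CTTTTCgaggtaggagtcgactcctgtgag
SNHG16 (chr17:76557769-76557798, plus strand): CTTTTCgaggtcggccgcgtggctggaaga
ZFAS1 (chr20:49278642-49278671, plus strand): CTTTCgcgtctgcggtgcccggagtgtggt
SNHG5 (chr6:85678704-85678733, minus strand): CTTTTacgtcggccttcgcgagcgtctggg
SNHG8 (chr4:118278758-118278787, plus strand): CTTTCacattcgggaagcgtcgggattagg
SNHG12 (chr1:28581844-28581873, minus strand): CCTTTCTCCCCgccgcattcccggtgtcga
SNHG1 (chr11:62855450-62855479, minus strand): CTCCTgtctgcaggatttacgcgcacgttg
SNHG7 (chr9:136728155-136728184, minus strand): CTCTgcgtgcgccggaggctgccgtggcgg
SNHG15 (chr7:44986932-44986961, minus strand): cattaggggctcagcgcgtccctccaggcc

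With the rule set at a C followed by at least 4 pyrimidines, 8 of the 10 genes had at least 1 such transcript start, and SNHG7 and SNHG15 had none. At least 1 was found in 36.8% of other noncoding host genes, 83.5% of ribosomal protein genes and 12.9% of all genes in the count table. A gene with more annotated transcripts has more chances to meet the rule. SNHG7 begins with a C and pyrimidines that stop 1 base short of the rule. Over the members, 23 of 136 annotated transcripts (16.9%) met it. The share was 20.4% of the transcripts of ribosomal protein genes, 9.14% of those of other noncoding host genes and 2.59% of those of all genes in the count table. Only 1 of the 25 SNHG1 transcripts met the rule, against 6 of 29 for GAS5. RefSeq promoters (GRCh38.p14), which span 250 bases before to 50 after the gene start, were found for 8 members, all but SNHG6 and SNHG15. Such a run stood at the RefSeq start itself in 3 of the 8 (SNHG5, SNHG12 and ZFAS1), against 4.04% of all promoters, and began within 10 bases either side of it in 6, against 33.3%. Motifs were searched on both strands of the same windows. The estrogen response element, the full palindrome with any bases in its spacer, was in 0 of the 8, against 0.0659% of all promoters. The E-box CACGTG was in 1 (SNHG7), against 7.43%, and the TATA box TATAAA in 2 (SNHG1 and SNHG7), against 12% of all promoters. Letters in a window are a description and say nothing of what binds there.

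The 4 libraries held 71575816 to 85222856 counts, with 18358 to 18861 genes detected in each. ESR1 had 86.5 to 110 CPM in these libraries, and its level does not show the mutation. All 9 epithelial markers were detected, at 2351 to 3083 CPM in sum. The leukocyte list (4 genes) summed to 1.60 to 2.39 CPM with 2 of its genes at 0, and the endothelial list (3 genes) to 2.11 to 4.50 CPM with 1 at 0. The fibroblast list (5 genes, 3 of them tested) summed to 35.0 to 130 CPM, and a single gene of it reached 128 CPM. Levels are CPM, the counts scaled to a common library size, with library sizes adjusted by edgeR's TMM factors, and log2 CPM has a prior count of 2.

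The members spanned a wide range of levels. Lengths were taken from the transcripts in GENCODE's basic set where a gene had any. Per kilobase of the gene's median transcript length, SNHG5 was highest with a mean of 469 CPM per kb over the 4 libraries (346 to 547), followed by GAS5 with 450 (323 to 535). ZFAS1 came next with 242 (198 to 329), then SNHG8 with 198 and SNHG1 with 196. SNHG6 had 112, SNHG16 63.1, SNHG15 32.9, SNHG12 19.4 and SNHG7 11.9 CPM per kb. Ranges over the libraries overlapped between neighbours in this order from SNHG5 to SNHG1, and between SNHG15 and SNHG12. The other neighbours did not overlap. With the longest transcript as the length, the order of the first 4 genes was the same, SNHG6 came before SNHG1, and SNHG7 came before SNHG15 and SNHG12. Together the 10 genes took 0.104% of the counts of the DMSO A4 library, 0.144% of the E2 A4 library, 0.1255% of the DMSO B212 library and 0.150% of the E2 B212 library.

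**Figure D1:**
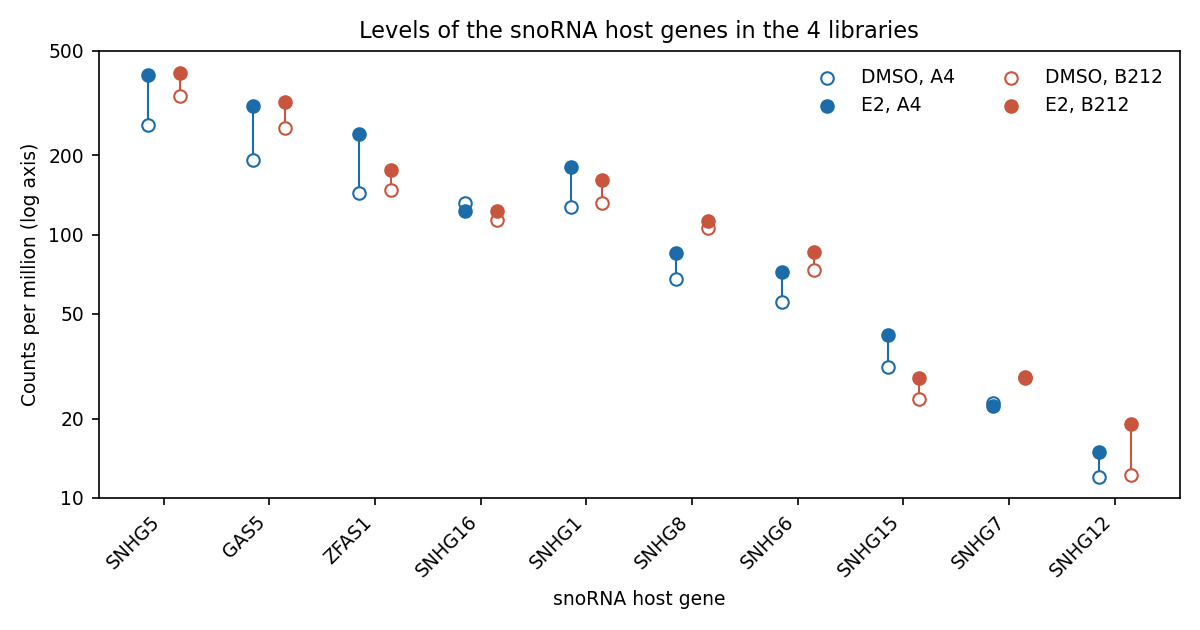
Level of each snoRNA host gene in the 4 libraries, in CPM on a log axis; open points are DMSO and filled points E2, blue is A4 and red is B212, and a line joins the libraries of a tag. Both E2 points lie above both DMSO points for GAS5, SNHG1, SNHG5, SNHG12 and ZFAS1, while the points of SNHG7 and SNHG16 overlap between treatments.

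The first comparison asked how the members differed between E2 and vehicle. GAS5, SNHG1, SNHG5, SNHG12 and ZFAS1 were higher in both E2 libraries than in both DMSO libraries, SNHG6, SNHG8 and SNHG15 were higher with E2 within each tag only, and SNHG7 and SNHG16 went opposite ways in the tags. Both E2 libraries were above both DMSO libraries in 13.2% of the 15599 genes tested, and a higher level with E2 within both tags was seen in 33.3%. With no block for the tag, edgeR's quasi-likelihood test called 0 of the 10 members at a Benjamini-Hochberg adjusted p under 0.05, and 0% of all genes tested, either way. At an unadjusted p under 0.05 there were 3 members (GAS5, SNHG1 and SNHG5) and 150 of all genes. DESeq2 without the block called 0 members and 0.00641% of genes, and limma-voom called 0 members. With the tag as a replicate block, 7 members rose and 0 fell, where 6.13% of all genes tested rose and 3.44% fell (9.56% either way). The 7 were GAS5, ZFAS1, SNHG12, SNHG5, SNHG1, SNHG15 and SNHG6. Under other settings with the block, 7 members were also called higher with DESeq2 size factors (2.92% of all genes called higher), library size only (5.84%), no filter (5.47%), at least 10 counts in every library (6.52%) and limma-voom (4.85%). DESeq2 called 4 members higher (2.41% of all genes), and 5 members passed an adjusted p under 0.01 in edgeR (1.99%). The median log2 fold change of the members was 0.37 with the block and 0.38 without it, against -0.0081 over all genes tested in either fit. Cell type markers moved with E2 too, in the fit with the block. Of 3 tested fibroblast markers 0 rose and 1 fell, with a median of -0.39, and of 9 epithelial markers 2 rose and 2 fell. Of 2 tested leukocyte markers 0 were called. The 1 tested endothelial marker fell (-0.49). It was -0.30 and not called once the dependence on transcript length and GC content, described below, was removed. In that fit 1 fibroblast marker was lower, and 2 epithelial markers were higher and 1 lower. The part of these markers in the values of the members was not tested.

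GAS5, growth arrest-specific 5, is a host RNA that accumulates in growth-arrested cells and whose RNA can bind the glucocorticoid receptor. It had 193 CPM (A4) and 254 CPM (B212) with DMSO and 310 and 320 CPM with E2. Both E2 libraries were above both DMSO libraries, and the DMSO libraries differed from each other far more than the E2 libraries did. The group means were 224 ± 43.3 CPM with DMSO and 315 ± 7.33 CPM with E2 (SD, n = 2). Without a block the difference was 0.49 ± 0.17 (SE) on the log2 scale and the edgeR adjusted p was 0.9999. Once the tag was a block it was 0.51 ± 0.080, with an edgeR adjusted p of 0.00108, a 1.42-fold rise.

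SNHG5, the host of SNORD50A and SNORD50B, followed the same order of libraries. It had 261 CPM (A4) and 335 CPM (B212) with DMSO and 405 and 412 CPM with E2. The E2 libraries were again close to each other and above both DMSO libraries. With the block it rose by 0.47 ± 0.080 (SE) on the log2 scale, with an edgeR adjusted p of 0.00181. Without the block the value was 0.45 ± 0.16 (edgeR adjusted p = 0.9999).

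ZFAS1, transcribed antisense from the start of the zinc finger gene ZNFX1, had 145 CPM (A4) and 148.5 CPM (B212) with DMSO and 241 and 175 CPM with E2. Here the DMSO libraries were alike and the E2 libraries were not. The difference was 66.55% in A4 and 18.1% in B212. Its log2 fold change was 0.49 ± 0.089 (SE) with the block and the edgeR adjusted p was 0.00273. DESeq2 with the same block did not call it, with an adjusted p of 0.336.

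SNHG1, one of the first host genes found to be noncoding, had 127 CPM (A4) and 132 CPM (B212) with DMSO and 181 and 162 CPM with E2. Its groups did not overlap and lay close within DMSO. The log2 fold change was 0.40 ± 0.073 (SE) with the block and the edgeR adjusted p was 0.00276.

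SNHG12, host of box H/ACA snoRNAs and 1 box C/D snoRNA, was the least abundant member by CPM. It had 12.0 CPM (A4) and 12.2 CPM (B212) with DMSO and 14.98 and 19.1 CPM with E2. The E2 difference was larger in B212 (56.5%) than in A4 (24.5%), the reverse of the 4 genes above. The log2 fold change was 0.48 ± 0.10 (SE) with the block and the edgeR adjusted p was 0.00612. It received no adjusted p from DESeq2 with the block.

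SNHG15, host of SNORA9, had 31.4 CPM (A4) and 23.75 CPM (B212) with DMSO and 41.6 and 28.6 CPM with E2. The groups overlapped, since its level in A4 with DMSO was above that in B212 with E2. The block gave a log2 fold change of 0.34 ± 0.081 (SE), with an edgeR adjusted p of 0.0135, while its adjusted p was 0.0505 in DESeq2 with the block. SNHG6, host of SNORD87, had 55.5 CPM (A4) and 73.4 CPM (B212) with DMSO and 71.9 and 85.6 CPM with E2. It too overlapped between the groups. On the log2 scale SNHG6 rose by 0.30 ± 0.073 (SE), with an edgeR adjusted p of 0.0152. Its value was 0.0068 and not called once the dependence on length and GC content was removed.

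The 3 members that did not pass the adjusted threshold differed in their pattern. SNHG8, host of SNORA24, had 68.0 CPM (A4) and 106 CPM (B212) with DMSO and 85.5 and 112 CPM with E2, and the tags lay further apart than the treatments. Its log2 fold change was 0.21 ± 0.074 (SE) with the block and the edgeR adjusted p was 0.0857. SNHG16, host of the SNORD1 snoRNAs, had 132 CPM (A4) and 113 CPM (B212) with DMSO and 123 CPM in each E2 library. Its log2 fold change with the block was 0.0050 ± 0.073 (edgeR adjusted p = 0.974), and its sign flipped with other scalings. SNHG7, host of SNORA17A and SNORA17B, had 22.9 CPM (A4) and 28.5 CPM (B212) with DMSO and 22.25 and 28.9 CPM with E2. Its log2 fold change with the block was -0.012 ± 0.082 (edgeR adjusted p = 0.947). A p that misses the threshold does not show that these 3 levels were equal.

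The size of the difference varied between the tags. In A4 the E2 minus DMSO difference in log2 CPM ran from -0.11 (SNHG16) to 0.74 (ZFAS1), with a median of 0.39 over the members. In B212 it ran from 0.018 (SNHG7) to 0.65 (SNHG12), with a median of 0.25. The difference was larger in A4 for 7 of the 10 members, against 49.1% of all genes tested, which moved either way. It was also larger in A4 for 10 of the 16 other noncoding host genes tested. Among ribosomal protein genes this held for 72 of the 76 tested, with medians of 0.39 in A4 and 0.13 in B212. For ZFAS1 the values were 0.74 in A4 and 0.24 in B212, and counting error alone gave 95% intervals of 0.70 to 0.77 and 0.20 to 0.28. For GAS5 they were 0.68 (0.65 to 0.71) and 0.33 (0.31 to 0.36). SNHG12 had 0.32 (0.19 to 0.44) in A4 and 0.65 (0.53 to 0.76) in B212. These intervals cover counting error only, and since each tag had 1 library per treatment, no difference between the tags was tested.

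**Figure D2:**
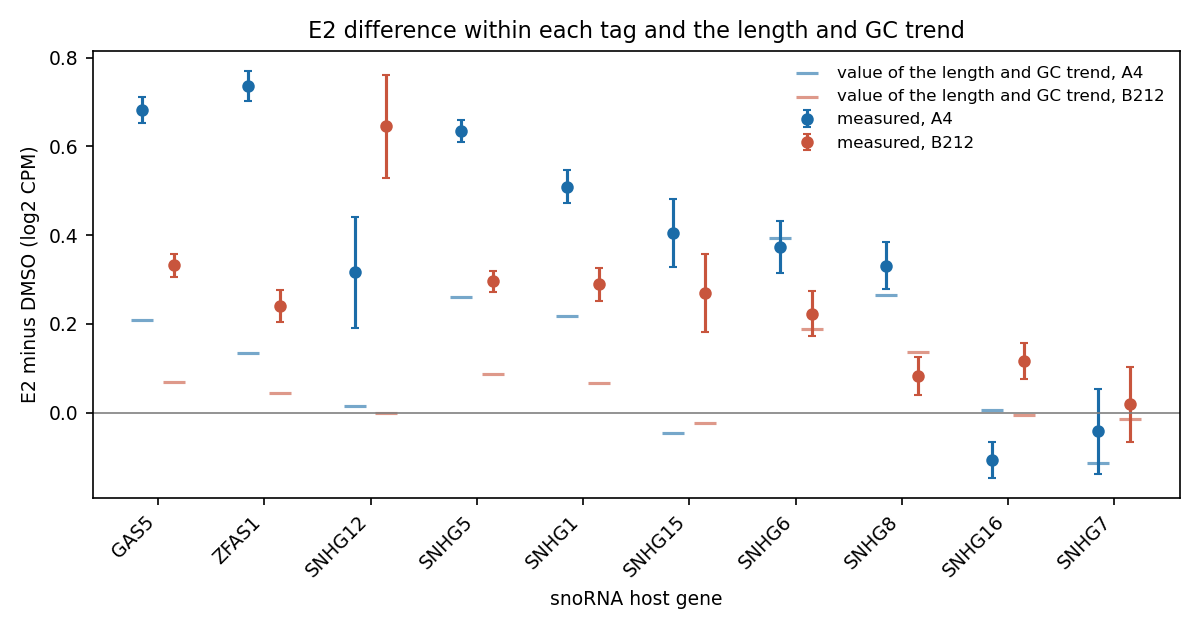
E2 minus DMSO difference in log2 CPM for each snoRNA host gene within A4 (blue) and B212 (red), with 95% intervals from counting error only; short horizontal marks give the value of the length and GC trend for a transcript of that length and GC content in the same tag. The A4 values of GAS5, ZFAS1, SNHG5 and SNHG1 lie above 0.50 and above their trend marks, while the A4 value of SNHG6 (0.37) lies at its mark (0.39).

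Transcript length and GC content moved with the E2 difference in these libraries, and the members are short. The median over the members of the longest transcript was 1281 bases, against 3256 bases over the 15069 tested genes with a length, and 1170.5 bases for ribosomal protein genes. A smooth trend on length and GC content, fitted in each library over all genes, gave an E2 minus DMSO value of 0.21 in A4 and 0.069 in B212 for a transcript like GAS5. For SNHG6, the shortest member (648 bases, 42.0% GC), the trend gave 0.39 and 0.19, and for SNHG8 0.26 and 0.14. For SNHG12 it gave 0.016 and -0.0010.

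With that trend removed and the tag as a block, 6 members were called higher and 0 lower, where 4.72% of all genes tested were called higher. The 6 were GAS5, SNHG1, SNHG5, SNHG12, SNHG15 and ZFAS1, all of which were among the 7. Their log2 fold changes were 0.37 ± 0.060 (SE) for GAS5, 0.40 ± 0.071 for ZFAS1, 0.48 ± 0.088 for SNHG12, 0.37 ± 0.066 for SNHG15, 0.29 ± 0.060 for SNHG5 and 0.26 ± 0.054 for SNHG1, with edgeR adjusted p of 7.71e-04 to 0.00600. SNHG6 had 0.0068 ± 0.055 (edgeR adjusted p = 0.964) and SNHG8 had 0.0061 ± 0.055. The median of the members was 0.27, against 0.00084 over all genes. With the median in place of the longest transcript length, the same 6 were called, beside 6.54% of all genes called higher, and the median was 0.23. The trend is fitted on all genes, short ones such as ribosomal protein genes included, so a change shared by short genes and an effect of length cannot be told apart.

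**Figure D3:**
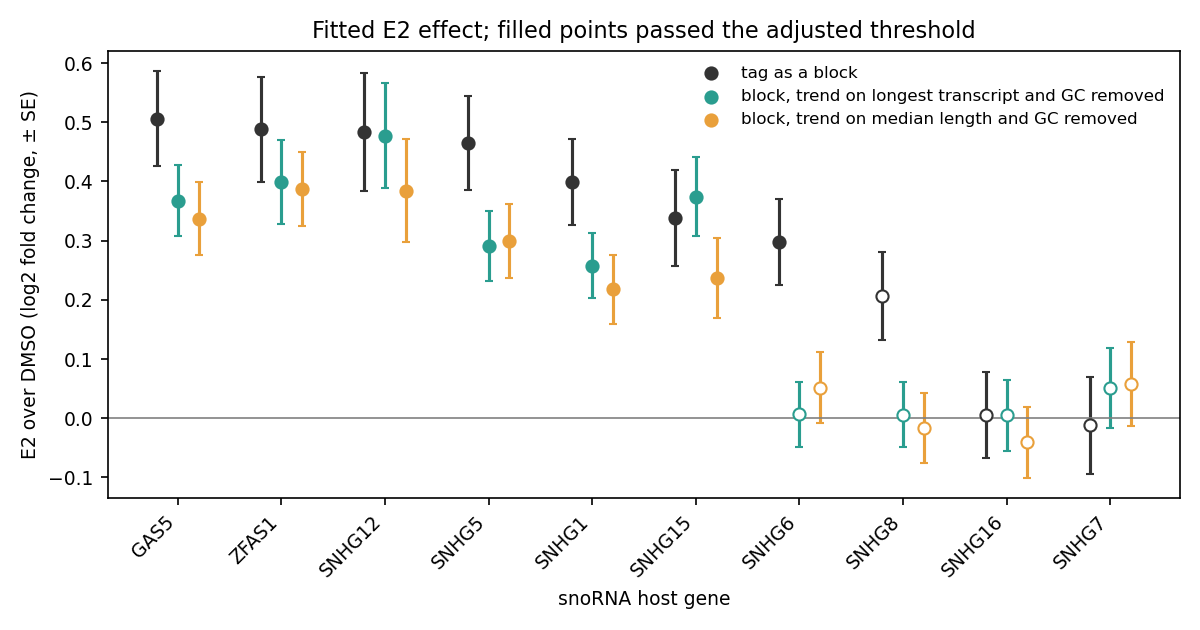
Log2 fold change of E2 over DMSO (± SE) for each snoRNA host gene in 3 fits with the tag as a block: as measured (black), with the trend on the longest transcript length and GC content removed (green), and with the trend on the median length and GC content removed (orange). Filled points passed the adjusted threshold; SNHG6 is filled only in black, and SNHG8, SNHG16 and SNHG7 are open in all 3 fits.

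The introns of these genes have rows of their own. The count table holds rows for snoRNAs that lie inside the members by RefSeq's coordinates, 33 rows in 9 hosts, of which 30 were tested. They were chosen after their values were seen, and because poly(A) selection preceded sequencing, a row may count host precursor or retained intron as well as mature snoRNA. The annotated transcripts of SNHG1, SNHG15 and SNHG16 share sequence with their own snoRNAs SNORD25, SNORA9 and SNORD1C, so these rows are not independent of their hosts. Their levels were low, 36.5 to 60.4 CPM in sum. With the tag as a block, 11 of the 30 rose and 0 fell, beside 6.13% of all genes tested, and the log2 difference was positive in both tags for 29, the exception being SNORD99 in SNHG12. The median log2 fold change was 0.66.

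In GAS5, 10 box C/D rows were tested and 5 rose. SNORD79 had 292 (A4) and 302 (B212) counts with DMSO and 517 and 506 counts with E2, with a log2 fold change of 0.81 ± 0.13 (SE) and an edgeR adjusted p of 0.00112. SNORD76 had 158 and 148 counts with DMSO and 350 and 244 counts with E2, with 0.96 ± 0.15 on the log2 scale. Both rows were low in both DMSO libraries and high in both E2 libraries. In SNHG1, 4 of 8 rows rose, among them SNORD22, with 228 and 245 counts with DMSO and 409 and 414 counts with E2. In SNHG5, SNORD50B rose, with 58 (A4) and 93 (B212) counts with DMSO against 120 and 130 counts with E2, a log2 fold change of 0.79 that was 0.23 and not called with the length and GC trend removed. SNORA9 in SNHG15 was called on 8 to 43 counts per library, and this call too ended with the trend removed. None of the rows in SNHG6, SNHG8, SNHG12, SNHG16 and ZFAS1 was called, and counts there were 1 to 158.

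The snoRNA rows outside the members were read beside them. Of 102 such rows tested, 93 had a positive log2 fold change with the block, 10 rose and 0 fell, and their median was 0.59. Of the rows in the members 36.7% were called and of the others 9.80%, while the medians of 0.66 and 0.59 lay close. The difference between these sets was not tested. Depth differed too, since the highest level of a row was 9.26 CPM in the members and 3.42 CPM outside. With the trend on the longest transcript removed, 0 of the 102 were called, and 7 had an unadjusted p under 0.05 by edgeR. With the median length, 1 was called. Of the rows in the members only 17 of the 30 (56.7%) had a length, so a count over that list with the trend removed is void. Of the 11 called rows, 4 had a length and could be read singly. SNORD22 kept its call with the trend removed (0.45, edgeR adjusted p = 0.0366). The calls of SNORD26 (0.16, edgeR adjusted p = 0.734), SNORD50B (0.23, adjusted p = 0.581) and SNORA9 (1.06, adjusted p = 0.165) ended. The 5 called rows in GAS5, and SNORD29 and SNORD31 in SNHG1, had no length, so no trend was removed from them.

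**Figure D4:**
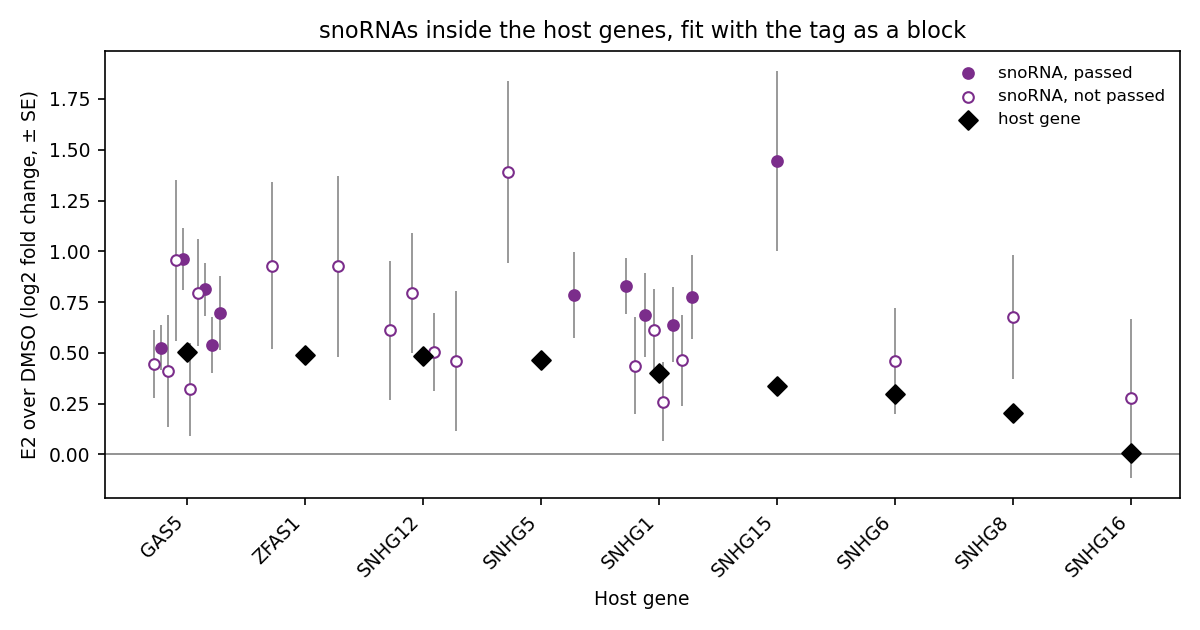
Log2 fold change of E2 over DMSO (± SE, tag as a block) for the 30 snoRNA rows tested, placed at their host gene; filled circles passed the adjusted threshold, open circles did not, and black diamonds give the host gene. Every circle lies above 0, and 5 of 10 in GAS5 and 4 of 8 in SNHG1 are filled.

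Other genes of the pathway were read from the same fit with the tag as a block. In it, 6.13% of all genes tested rose and 3.44% fell. Of the 17 further noncoding host genes in the table, 16 were tested, 4 rose (25%) and 0 fell, with a median log2 fold change of 0.23. LRRC75A-AS1, also called SNHG29 and the most abundant of them, rose by a log2 fold change of 0.42 (edgeR adjusted p = 0.00476), and SNHG3 rose by 0.30. Of 13 tested protein-coding host genes outside the ribosome, 4 rose (30.8%) and 0 fell. HSPA8, a chaperone, rose by 0.42 and GNL3, a nucleolar GTPase, by 0.26. With the trend on the longest transcript removed, GNL3 was 0.15 and not called (edgeR adjusted p = 0.119). With the median length it was 0.20 and called (edgeR adjusted p = 0.0116). Of 76 tested ribosomal protein genes, 36 rose (47.4%) and 1 fell, with a median of 0.24, and RPS3A (1.17) and RPL9 (0.72) had the smallest p-values. The one that fell was RPS26 (-0.66), which was -1.19 in A4 and 0.014 in B212. With the trend on the longest transcript removed, 25 ribosomal protein genes rose and 2 fell, and 2 of the 16 further noncoding hosts rose. Over all genes tested, 4.72% rose and 2.02% fell in that fit. Ribosomal protein genes have many near-identical pseudogene copies, so how reads were split among them is uncertain.

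The remaining lists are read beside the 6.13% of all genes tested that rose and the 3.44% that fell. Of 15 protein-coding TOP genes outside the ribosome, 2 rose (13.3%; TPT1 by 0.38 and EEF1B2 by 0.36) and 1 fell (6.67%; EEF2, -0.25), with a median of 0.016. EEF2 was -0.14 and not called with the trend removed (edgeR adjusted p = 0.245). Among 16 snoRNP proteins and assembly factors, 1 rose (6.25%), ZNHIT3 (0.35), and 0 fell. With the trend on the longest transcript removed, ZNHIT3 was 0.14 and not called (edgeR adjusted p = 0.188). With the median length it was 0.19 and called (edgeR adjusted p = 0.0363). GAR1 was called lower in both trend fits (-0.24 and -0.19, edgeR adjusted p = 0.0333 and 0.0264). Of 17 factors of nonsense-mediated decay, 0 rose and 1 fell (5.88%), the helicase UPF1 (-0.29, edgeR adjusted p = 0.0193). It had a log2 difference of -0.42 in A4 and -0.16 in B212, and it was -0.12 and not called after removal of the trend. Among 7 protein-coding decay targets and 13 genes of mTORC1 and LARP1 control, 0 were called either way, with 0 and 7 at an unadjusted p under 0.05. Of the latter list, EIF4E was called higher with the trend on the longest transcript removed (0.20, edgeR adjusted p = 0.0359). It was 0.017 and not called with the median length. DESeq2 and limma-voom were not read for these lists.

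**Figure D5:**
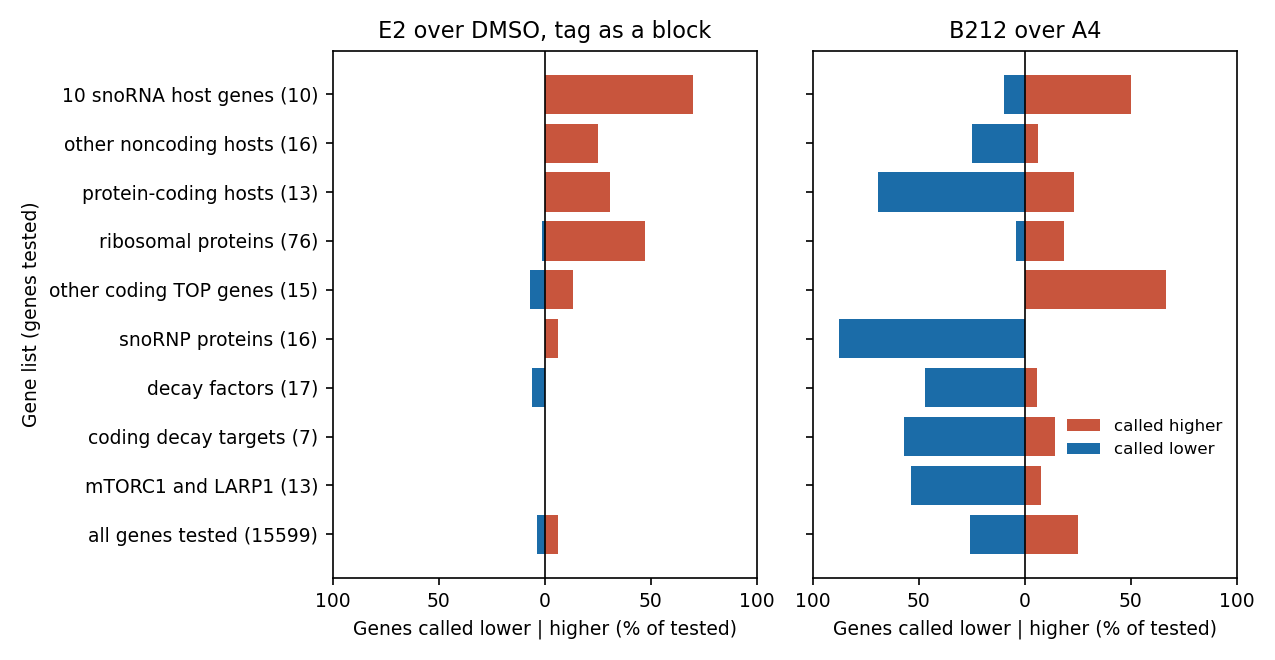
Share of the tested genes in each list called higher (red, to the right) or lower (blue, to the left) at an adjusted p under 0.05, for E2 over DMSO with the tag as a block (left panel) and for B212 over A4 (right panel). With E2, 70% of the 10 snoRNA host genes and 47.4% of the ribosomal protein genes were called higher, against 6.13% of all genes tested.

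The second comparison asked how the members differed between the B212 and A4 cells at equal treatment. The values describe this pair of clones. With edgeR's quasi-likelihood test, 5 members were higher and 1 was lower in B212, where 25.2% of all genes tested were higher, 25.8% were lower and 51% were called either way. The count of 6 in 10 is thus near the background, and the order among the members is what the values add. SNHG8, SNHG7 and SNHG6 were higher in both B212 libraries than in both A4 libraries, by a log2 fold change of 0.52 ± 0.075 (SE), 0.35 ± 0.082 and 0.33 ± 0.073. For SNHG6 the value was 0.16 with the length and GC trend removed and still called (edgeR adjusted p = 0.0205). The largest of their edgeR adjusted p was 0.00151 (SNHG7). SNHG15 was lower in both B212 libraries, with a log2 fold change of -0.47 ± 0.081 and an edgeR adjusted p of 6.85e-05. Libraries of the tags did not overlap for 3 members higher in B212, beside 34.7% of all genes tested, and for 2 lower in B212 (SNHG15 and SNHG16), beside 32.8%. For SNHG16 the gap was only that between its E2 libraries, -5.76e-04 in log2 CPM (B212 minus A4). Without treatment in the fit, 2 members (SNHG7 and SNHG8) and 28.6% of all genes tested were called.

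GAS5 (0.22, edgeR adjusted p = 0.0259) and SNHG5 (0.19, adjusted p = 0.0493) were called higher in B212, but their tag difference was 0.40 and 0.36 with DMSO and 0.048 and 0.025 with E2. Without the DMSO B212 library the log2 fold change was 0.012 for GAS5 and -0.011 for SNHG5, and without the DMSO A4 library the value for GAS5 was 0.048. With a DMSO library left out, only the E2 libraries compare the tags. These values thus restate the E2 differences after new scaling and are no further evidence. DESeq2, and edgeR with DESeq2 size factors, called neither GAS5 nor SNHG5. SNHG1 (-0.052), SNHG12 (0.19), SNHG16 (-0.11) and ZFAS1 (-0.21) did not pass, and the sign of SNHG1 flipped with library size as the only scaling. Of the 16 snoRNP proteins, 0 were higher and 14 lower in B212, among them DKC1 and GAR1 of the box H/ACA particle (-0.51 and -0.53). For the other coding TOP genes the counts were 10 higher and 0 lower of 15. Over all genes tested these shares were 25.2% higher and 25.8% lower. Cell type markers differed between the tags as well. Of 3 tested fibroblast markers 0 were higher and 2 lower in B212, and of 9 epithelial markers 5 were higher and 2 lower. Their part in the values of the members was not tested.

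Genes whose profile over the 4 libraries was most like the mean of the members were found by the Euclidean distance of log2 CPM centred on its mean. Among 12479 genes with a mean of at least 100 counts, these were BTG3 (distance 0.0186), LACTB2 (0.0201), CYB5A (0.0316), ZFAND1 (0.0354) and KRTCAP3 (0.0381). A profile over 4 libraries is a thin basis for likeness. The mean profile of the members was -0.24 (DMSO A4), 0.14 (E2 A4), -0.078 (DMSO B212) and 0.17 (E2 B212) in centred log2 CPM. The E2 libraries were the highest and the A4 library with DMSO stood lowest.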

How the data were processed

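RNA sequencing counts of 4 libraries were used. The library kit was a stranded one with poly(A) selection and 500 ng of RNA, per the labels' protocols. The authors deposited raw read counts per gene symbol. Per the submitters' processing notes, HISAT2, SAMtools, featureCounts, DESeq2 and the build hg19 were used; their settings, the annotation and the strand setting are not given in the sources used here. The table's 26364 rows all named genes, and 4 columns of other samples were not used. Columns were placed in groups by the treatment in their names.

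Counts were filtered with filterByExpr (minimum count of 10), which left 15599 genes, and library sizes were adjusted by TMM. The tests were edgeR 4.0.16 quasi-likelihood tests with Benjamini-Hochberg adjustment over all genes tested and a threshold of 0.05. The standard error was the log2 fold change over the root of F. The E2 fit had no block, and treatment was a covariate between tags. The labels give each clone 1 DMSO and 1 E2 library, so libraries of a tag are paired. Deviations of same-tag libraries from their group means had a Pearson r of 0.871 across genes, so the fit with the tag as a replicate block is printed beside the other. The biological coefficient of variation was 32.2% without and 5.99% with the block. Libraries of a group differed by more than sampling noise (chi-square per degree of freedom of 161.5 and 162.3).

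The trend on log2 length and GC content was fitted per library with mgcv 1.9.3 and entered as an offset. It used the longest GENCODE 29 transcript per symbol, found for 96.6% of tested genes. Only transcripts of GENCODE's basic set were taken where a symbol had any, and of these only protein-coding ones where there were any. The median length was taken over the same transcripts. RefSeq tables (GRCh38.p14) gave promoters, for 8 of 10 members, and snoRNA positions. DESeq2 1.42.0, limma 3.58.1, R 4.3.3, Python 3.11.15 and matplotlib 3.10.9 were used. Scripts were tested on simulated data. Members and lists were chosen with earlier results of these data known. Named genes were the 10 members, from each list the 2 genes in each direction with the smallest p, 5 genes of most similar profile and genes overlapping or next to a member; other members of a list are named only to say which were counted.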

Additional observations from a re-analysis of the deposited data

Results flagged for a closer look

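Differences of 4 genes changed sign between the tags or between the treatments. These differences were not tested, since each combination of tag and treatment had 1 library.

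SNHG16 had an E2 minus DMSO difference in log2 CPM of -0.11 in A4 and 0.12 in B212. Counting error alone gave 95% intervals of -0.15 to -0.066 and 0.075 to 0.16. SNHG7 had -0.042 in A4 and 0.018 in B212, with intervals of -0.14 to 0.053 and -0.066 to 0.10, both of which include 0.

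ZFAS1 had a B212 minus A4 difference of 0.038 with DMSO and -0.46 with E2. SNHG1 had 0.058 with DMSO and -0.16 with E2. Both genes were near equal in the DMSO libraries and higher in A4 in the E2 libraries.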

How the results depend on the processing

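The trend on the median transcript length was chosen after seeing the data; all other alternatives were planned. With no block, 0 genes and 0 members were called (150 genes and 3 members at an unadjusted p under 0.05 by edgeR), and this held under both other scalings, both filters, limma-voom, the stricter threshold and each library left out. With a library left out, the lone library of its group is assumed to vary like the other group. DESeq2 called 1 gene, no member. With the replicate block the counts of genes and of members called were 1492 and 7. They were 717 and 7 with DESeq2 size factors in edgeR, 1686 and 7 with library size only, 1770 and 7 with no filter, and 1560 and 7 with at least 10 counts in every library. DESeq2 gave 562 and 4 (GAS5, SNHG1, SNHG5 and SNHG6), limma-voom 1138 and 7, and an adjusted p under 0.01 gave 415 and 5. Removing the trend on length and GC content gave 1052 and 6, and with the median transcript length 1606 and 6. The cause of these differences was not tested.

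The median log2 fold change of the members was 0.38 with no block. It became 0.27 with the trend removed and 0.23 with the median length, both with the replicate block. Leaving out libraries gave 0.30 to 0.50. Those fits had no block, and leaving out a library makes the tags unequal between the groups. Differences between the tags therefore enter their values, here and for the single members below. Single members with values near 0 changed sign. SNHG16 had -0.0071 (DESeq2 size factors), -0.017 (library size only), -3.53e-04 (no filter), -0.0051 (at least 10 counts in every library) and -0.0071 (DESeq2) with no block. With the replicate block it had -0.0027, -0.015, -6.58e-04 and -0.0027 under DESeq2 size factors, library size only, at least 10 counts in every library and DESeq2, and -0.041 with the trend on the median length. SNHG7 had 0.051 and 0.058 with the trend removed on the longest and the median length, and SNHG8 -0.017 with the latter. Leaving out libraries gave -0.21 to 0.16 (SNHG7), -0.10 to 0.54 (SNHG8) and -0.11 to 0.12 (SNHG16). The others kept their sign, at 0.037 to 0.59 (SNHG15), 0.10 to 0.50 (SNHG6), 0.24 to 0.72 (ZFAS1), 0.31 to 0.71 (GAS5), 0.31 to 0.64 (SNHG12), 0.28 to 0.65 (SNHG5) and 0.30 to 0.48 (SNHG1).

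Between the tags 7950 genes and 6 members were called, and 4456 genes and 2 members (SNHG7 and SNHG8) with no treatment term, which adds the E2 difference to the spread. SNHG1 became 0.015 with library size only. Leaving out libraries gave medians of 4.95e-04 to 0.19 and SNHG5 values of -0.011 to 0.36. These fits have no residual degrees of freedom and no test. Each gives the tag difference within the treatment that kept both tags. SNHG12 (higher) passed with library size only and both trend fits (adjusted p of 0.0125 to 0.0332 by edgeR). ZFAS1 (lower) passed with no filter, at least 10 counts in every library and both trend fits, with adjusted p of 0.00724 to 0.0465 by edgeR.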

Other observations

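Several members lie next to or across another gene, and the strand setting of the counting is not given in the sources used here. PRSS12, which lies 215 bases from SNHG8 on the opposite strand, was 1.17 higher in B212 on the log2 scale, as SNHG8 was by 0.52. MCMDC2, which overlaps SNHG6 on the opposite strand, was higher by 1.275, and FAM69B, which overlaps SNHG7, by 0.55. ZNFX1, antisense to ZFAS1, had a B212 over A4 log2 fold change of -0.93, where ZFAS1 had -0.21, and SLC3A2 had -0.73 beside -0.052 for SNHG1. Other neighbours went the opposite way to the member, ST6GALNAC2 with 0.62 (edgeR adjusted p = 0.00147) beside -0.11 for SNHG16, and, not called, TRNAU1AP with -0.19 beside 0.19 for SNHG12 and ZBTB37 with -0.18 beside 0.22 for GAS5. GAS5-AS1 had 0.41 and was not called. Over all genes tested, 51% were called between the tags, either way. With E2 and the tag as a block, 1 of the 9 tested neighbours was called, beside 9.56% of all genes tested. It was PRSS12, with a log2 fold change of -0.28 (edgeR adjusted p = 0.0284) beside 0.21 for SNHG8. Neither GAS5-AS1 (-0.25) nor ZBTB37 (0.17), both overlapping GAS5, was called. The part of overlapping reads in the values of the members was not tested.

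Of the 32-base words in the transcript used for each member, 0% (SNHG5, SNHG6 and SNHG8) to 27.3% (ZFAS1) also occurred in a transcript of another annotated gene. For ZFAS1 the leading other entries were short RNA family models annotated within it. For the others the share was at most 5.49% (SNHG12), and the leading entries of SNHG1, SNHG15 and SNHG16 were SNORD25, SNORA9 and SNORD1C, which lie within them.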
